A study of Rattus norvegicus with 18 samples.

Results

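The genes described here encode the nuclear subunits of the mitochondrial respiratory chain and ATP synthase, with a few assembly factors. They were taken by symbol: every gene whose symbol begins with Nduf, Sdha, Sdhb, Sdhc, Sdhd, Uqcr, Cox4, Cox5, Cox6, Cox7, Cox8 or Atp5. The arrays carry 89 such genes, of which 88 were measured well enough to test, out of 21574 genes tested. Of these 21574, 10933 have a symbol. The rest are transcripts matched to no symbol, each counted as a gene, and all shares over all genes include them. The gene left out is Cox8c, which lay above background on 0 of 18 arrays. The 88 comprise 35 complex I subunits, 7 complex I assembly factors, 6 complex II genes (4 subunits and the assembly factors Sdhaf1 and Sdhaf2), 8 complex III genes, 15 complex IV genes, 16 ATP synthase genes and the pseudogene Cox6c-ps1. Ndufa4 and its paralog Ndufa4l2 are counted with complex I by their symbols, although the Ndufa4 protein is a complex IV subunit. Cyc1, a complex III subunit, falls outside the symbol rule and is given with the neighbouring genes.

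Hepatocytes, which carry out most of the liver's metabolism, were cultured from rats and given 4 compounds of a class named p-dialkoxy chlorobenzenes in the title, which appear in the labels only as codes. The cells were cryopreserved hepatocytes of male Sprague Dawley (SD) rats, whose age the labels do not give. After a preculture of 24 h, each of DDMB, DDEB, CDMB and CDEB was given at 300 µM for 24 h, and the vehicle DMSO served as control, in 3 cultures per group. There are 2 DMSO groups, because the arrays came from different chip lots: VC_1 is the control for DDMB, CDMB and CDEB, and VC_2 is the control for DDEB. The design text calls the 3 cultures independent experiments; whether they came from different animals is not stated, and p-values then reflect only how far these cultures differed.

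The respiratory chain passes electrons from NADH through complex I, or from succinate through complex II, to ubiquinone, then through complex III and cytochrome c to complex IV, which reduces oxygen. Complexes I, III and IV pump protons across the inner mitochondrial membrane, and ATP synthase uses the returning protons to make ATP. Hepatocytes are rich in mitochondria, and their respiration pays for glucose, urea and bile acid synthesis. Most subunits are nuclear genes read here; the core subunits made inside the mitochondrion were not matched to any probe and are not analysed here.

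Transcription of many of these nuclear genes is known to use the factor NRF1 and the ETS factor GABPA. The promoter table from RefSeq (assembly GRCr8) holds 300 bases around the start of a gene, 250 before it and 50 after, and matched 77 members. The NRF1 core letters GCGCATGC or their reverse GCATGCGC stood in 10 of the 77 (13.0%), and in 827 of all 33469 promoters of that length (2.47%). The ETS core letters CCGGAAG or CTTCCGG stood in 25 members (32.5%), and in 2927 of all promoters (8.75%). Both stood in 4 members (5.19%) and in 158 of all promoters (0.472%). Overlapping matches on the 2 strands were counted once per promoter. The stretches that hold both are shown for 1 gene each of complexes II, I and V, since these letters are shared between complexes. Capitals mark the matches, all of which lie before the start.
Sdhb, chr5:158547755-158547844, plus strand: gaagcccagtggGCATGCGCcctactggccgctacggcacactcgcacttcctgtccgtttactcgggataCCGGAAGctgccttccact
Ndufa6, chr7:115750402-115750519, minus strand: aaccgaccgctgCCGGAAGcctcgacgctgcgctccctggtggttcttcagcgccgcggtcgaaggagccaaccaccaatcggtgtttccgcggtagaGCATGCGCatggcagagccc
Atp5me, chr14:1464772-1464859, plus strand: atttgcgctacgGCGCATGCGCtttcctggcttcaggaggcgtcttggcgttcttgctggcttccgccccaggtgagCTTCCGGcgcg
In Sdhb the NRF1 letters come first, in Ndufa6 the ETS letters do, and in Atp5me 2 overlapping NRF1 matches precede an ETS match close to the start. A match of letters describes the sequence and is not a measured binding site.

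Levels are the log2 of the processed signal minus the 75th percentile of the same array, so 0 is the level of that percentile. Changes are read between arrays and never between probes. The brightness ranks and summed marker signals do set different probes side by side, so they also depend on how strongly each probe binds. The genes are bright: 63 of the 88 lay in the brightest 10% of all genes tested, with a median at percentile 94.9, and 85 lay well above background on all 18 arrays. The markers of hepatocytes lay above background on all arrays for 15 of 15 genes, and their summed signal was between 11.4 and 12.1 on the log2 scale. Of the markers of other cells, 6 or 7 of 10 for stellate cells and fibroblasts, 2 or 3 of 7 for endothelium, 1 or 2 of 8 for macrophages, 2 or 3 of 6 for bile duct cells and 3 of 7 for lymphocytes lay above background on every array of a group. Their summed signals were 0.15 to 1.1, 2.81 to 3.53, -0.75 to 2.44, 1.63 to 2.39 and 2.59 to 5.01 in that order. Among these markers Lum and Lrat (stellate cells and fibroblasts), Tek and Lyve1 (endothelium), Cd163, Csf1r, Vsig4 and Cd5l (macrophages), Spp1 (bile duct cells) and Ptprc (lymphocytes) lay well above background on no array. The arrays lie on 4 slides. VC_1 and DDMB share slide 1, VC_2 and the first and second DDEB arrays share slide 2, the third DDEB array lies alone on slide 3, and CDMB and CDEB share slide 4. The comparison of DDMB with VC_1 is thus within 1 slide, whereas for CDMB and CDEB compound and slide cannot be told apart. The ratio of a dim to a bright spike-in control, added to the RNA at fixed amounts, lay between 1.83% and 2.08% on slide 1, between 1.23% and 1.29% on slide 4, and at 1.64% on slide 3. On slide 2 it was 1.76%, 1.81% and 1.73% in VC_2 but 1.07% and 1.18% on the first and second DDEB arrays, so it moved with the DDEB comparison; its part in those results was not tested. Across all genes, 4 arrays stood apart from their groups in a common direction: VC_1 replicate 3, VC_2 replicate 3, DDMB replicate 2 and DDEB replicate 3. Counts of called genes against a control, between the DMSO groups and for DDMB against CDEB are therefore also given without them.

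The first question was whether any compound changed the expression of the chain. None of the 88 genes passed the test for any of the 4 compounds against its own control (limma, Benjamini-Hochberg adjusted p below 0.05 over all genes). Over all genes tested, 0.556% passed for DDMB, 0.0417% for CDMB, 0.111% for CDEB and 0.844% for DDEB, so these counts of 0 lie near a low background. The intervals of most members were narrow, but they reflect only the spread within groups and hold no term for the slide. Only DDMB was compared with its control wholly within 1 slide. For CDMB, CDEB and DDEB the intervals therefore do not bound the change apart from shifts between slides. For DDMB and for CDMB, 82 of 88 members had a 95% interval that lay within a 1.5-fold change in either direction, and for CDEB and for DDEB 81 had one. At a 2-fold limit these counts were 85 for DDMB, 84 for CDMB, 85 for CDEB and 84 for DDEB. The median standard error of a member was 0.07 on the log2 scale. Leaving out the 4 arrays that stand apart, 1 member passed for DDMB, the complex I assembly factor Ndufaf1 (1.14% of members, against 1.8% of all genes), and 0 passed for CDMB, CDEB and DDEB (0.181%, 0.352% and 1.54% of all genes).

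**Figure D1:**
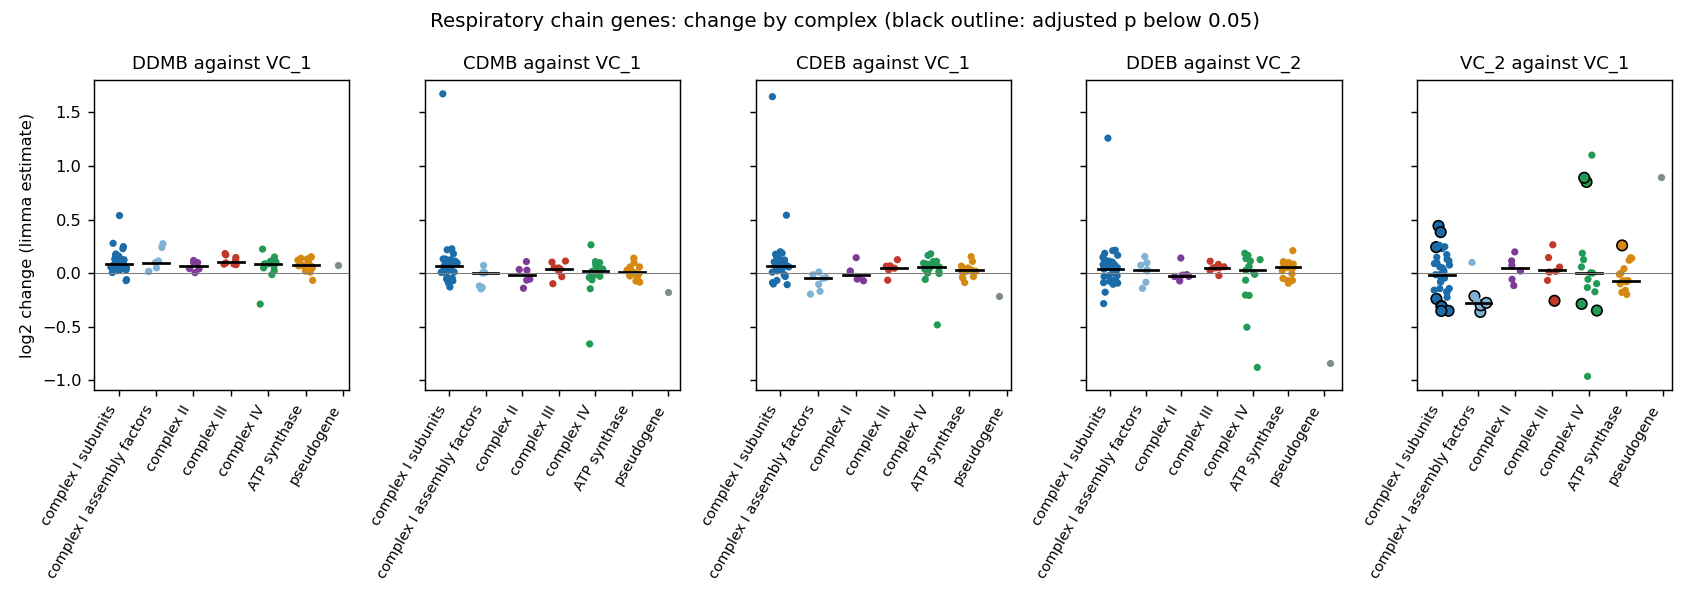
Log2 change of each respiratory chain gene (points, limma estimates) for each compound against its DMSO group and for the DMSO group VC_2 against VC_1, by complex. Bars are medians of a set, and black outlines mark genes with an adjusted p below 0.05: 0 genes in each compound panel and 18 between the DMSO groups. Most points of the compound panels lie close to 0, and the median over all members is 0.09 for DDMB, 0.03 for CDMB, 0.04 for CDEB, 0.04 for DDEB and -0.01 for the DMSO groups.

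DDMB had the largest share of positive estimates. The median change of the 88 genes was 0.09 on the log2 scale and 83 of them were above 0, against a median of 0.01 over all genes tested. Bright genes in general were positive with DDMB: in the brightest 10%, the median was 0.08 and 76.2% lay above 0. With quantile normalization, which forces the same distribution on every array, the median of the members was 0.02 and 59 were above 0. At an unadjusted p below 0.05 there were 16 members, all with positive estimates, or 18.2% against 9.9% of all genes. The 3 DDMB arrays lay above all 3 VC_1 arrays for 26 members and below them for 0, where 8.75% of all genes lay above and 5.53% below, and 381 of the 2158 brightest genes lay above. The median level of the members per array was 5.61, 5.52 and 5.52 in VC_1, and 5.73, 5.59 and 5.69 with DDMB. The second DDMB array, one of those standing apart, lay within the range of VC_1, so the groups overlap.

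In complex I, the lowest adjusted p with DDMB was that of Ndufab1, the mitochondrial acyl carrier protein, which is also a subunit of the complex. Ndufab1 lay at 5.06, 4.98 and 5.09 in VC_1 and at 5.28, 5.25 and 5.34 with DDMB. All 3 treated arrays were above all 3 controls, and the difference was 0.25 ± 0.06 (limma estimate ± standard error), with an adjusted p of 0.0826. A second, much dimmer probe of Ndufab1 differed by 0.05. Ndufaf8, an assembly factor, lay at 5.18, 5.10 and 5.09 in VC_1 and at 5.47, 5.26 and 5.37 with DDMB, a difference of 0.24 ± 0.07 (adjusted p = 0.145). Ndufaf1, which helps assemble the membrane arm, lay at 1.20, 1.15 and 1.48 in VC_1 and at 1.55, 1.55 and 1.56 with DDMB. The third VC_1 array, one of those standing apart, was the highest control, and the groups did not overlap. Its difference was 0.28 ± 0.10 with an adjusted p of 0.341 over all arrays, and 0.38 ± 0.06 with an adjusted p of 0.0139 without the 4 arrays. The 7 assembly factors had a median of 0.10 and ranged from 0.02 (Ndufaf3) to 0.28 (Ndufaf1). Of the 35 genes counted by symbol as subunits, the extremes were Ndufa10 at -0.07 ± 0.14 and Ndufa4l2 at 0.54 ± 1.53, whose error is described further on.

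No complex II gene passed with any compound. Complex II is succinate dehydrogenase, which also works in the citric acid cycle: Sdha binds the flavin, Sdhb the iron-sulphur clusters, and Sdhc and Sdhd anchor the enzyme in the membrane. The differences with DDMB were 0.01 for Sdha, 0.10 for Sdhb, 0.12 for Sdhc and 0.10 for Sdhd, each with a standard error between 0.06 and 0.08. With CDMB they were 0.03 for Sdha, -0.06 for Sdhb, 0.03 for Sdhc and 0.11 for Sdhd. CDEB gave -0.04, -0.07, 0.02 and 0.15 for the same genes in that order, and DDEB gave -0.03, -0.03, -0.07 and -0.02. Every adjusted p of these 4 genes was 0.335 or higher. Sdhd with CDEB, the lowest of them, lay at 5.31, 5.27 and 5.21 in VC_1 and at 5.45, 5.41 and 5.37 with CDEB, so the arrays did not overlap while the test was not passed. The assembly factor Sdhaf1 was the lowest of the set with CDMB (-0.14 ± 0.14) and the highest with DDEB (0.14 ± 0.14).

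In complex III, which hands electrons from ubiquinol to cytochrome c, all 8 estimates were positive with DDMB, from 0.08 (Uqcr11) to 0.18 ± 0.06 (Uqcr10, adjusted p = 0.275). With quantile normalization 7 of the 8 were positive. Uqcr10, a small subunit, lay at 7.86, 7.88 and 7.80 in VC_1 and at 8.12, 7.99 and 7.99 with DDMB, with no overlap. CDMB ranged from -0.10 (Uqcrq) to 0.11 (Uqcr11), CDEB from -0.07 (Uqcrc1, a core protein) to 0.13 (Uqcr11), and DDEB from -0.02 (Uqcr10) to 0.11 (Uqcrh, the hinge protein). Uqcr10 was thus the highest of the complex with DDMB and the lowest with DDEB, but the difference between these 2 effects did not pass its test (adjusted p = 0.839). Its second probe gave 0.15 with DDMB and -0.10 with DDEB. A second, much dimmer probe of Uqcr11 gave 0.10 with DDMB but -0.17 with CDMB and -0.12 with CDEB. That of Uqcrq gave 0.31 with CDMB.

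Complex IV has tissue-specific pairs of subunits, of which the second member named is the heart and muscle, lung or testis form. The estimates of the liver forms were small. Cox4i1 differed from control by 0.07 with DDMB, 0.11 with CDMB, 0.18 with CDEB and 0.17 with DDEB, each ± 0.07 and with no adjusted p under 0.308. Cox6a1 gave 0.09, 0.08, 0.08 and 0.11 in the same order, Cox7a2 0.08, 0.04, 0.04 and 0.14, Cox8a 0.11, 0.02, 0.08 and 0.06, and Cox6b1 0.09, 0.04, 0.02 and -0.01. None of these passed. The partner forms had wider errors: Cox4i2 gave 0.02, -0.03, 0.06 and -0.50 (standard error 0.25), Cox6b2 -0.01, -0.02, 0.09 and -0.20 (0.13), and Cox6a2 -0.29, -0.66, -0.48 and -0.06 (0.40). Cox8b gave 0.23 with DDMB, 0.27 with CDMB and 0.17 with CDEB, with a standard error of 0.33. Cox8b was well above background on no VC_2 and no DDEB array, so no change is given for DDEB. The widest negative estimate was that of Cox7c with DDEB, at -0.88 ± 0.42, and the values behind it are given below. The highest estimate with DDEB was that of Cox5b, a subunit on the matrix side, which lay at 7.26, 7.18 and 7.16 in VC_2 and at 7.29, 7.27 and 7.59 with DDEB. The groups did not overlap, the third DDEB array was the highest, and the difference was 0.19 ± 0.08 (adjusted p = 0.264), or 0.08 without that array.

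ATP synthase showed the same narrow range. Atp5f1d, the delta subunit of the central stalk, had the highest estimate with CDMB (0.14), CDEB (0.15) and DDEB (0.21 ± 0.08, adjusted p = 0.215), and 0.13 with DDMB. It lay at 5.29, 5.25 and 5.27 in VC_1 and above that in all 9 cultures given DDMB, CDMB or CDEB, which ranged from 5.37 to 5.45. In VC_2 it lay at 5.08, 5.07 and 5.13, and with DDEB at 5.20, 5.17 and 5.53, again with no overlap. The first 3 comparisons share their control arrays. The lowest estimates were those of Atp5mc1 with DDMB (-0.07), Atp5mg with CDMB (-0.08) and DDEB (-0.09), and Atp5mk with CDEB (-0.09), and the highest with DDMB was that of Atp5pd (0.15). Atp5if1, which blocks the enzyme when it runs backwards, differed by 0.10 with DDMB, 0.01 with CDMB, 0.03 with CDEB and -0.05 with DDEB.

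CDMB, CDEB and DDEB each had Ndufs7 as the member with the lowest adjusted p. Ndufs7 is a core complex I subunit that holds the last iron-sulphur cluster before ubiquinone. It lay at 4.80, 4.66 and 4.63 in VC_1, at 4.92, 4.91 and 4.93 with CDMB, and at 4.91, 4.86 and 4.88 with CDEB. Both treated groups lay above every VC_1 array. With DDMB it lay at 4.89, 4.74 and 4.86, which overlaps VC_1. On the other lot it lay at 4.59, 4.52 and 4.46 in VC_2 and at 4.71, 4.70 and 4.79 with DDEB, without overlap. The differences were 0.23 ± 0.06 for CDMB (adjusted p = 0.199), 0.19 ± 0.06 for CDEB (adjusted p = 0.236), 0.21 ± 0.06 for DDEB (adjusted p = 0.136) and 0.14 ± 0.06 for DDMB (adjusted p = 0.493). None passed the test, and VC_2 itself lay 0.17 ± 0.06 below VC_1. Ndufs1, the largest core subunit, followed in CDMB, at 4.19, 4.16 and 4.17 in VC_1 and 4.43, 4.32 and 4.32 with CDMB (0.18 ± 0.06, adjusted p = 0.261). Ndufs4, an accessory subunit known from Leigh syndrome models, gave 0.54 ± 0.20 with CDEB (adjusted p = 0.277) and -0.28 ± 0.20 with DDEB (adjusted p = 0.531) at a dim signal near -4. The difference between these 2 effects had an adjusted p of 0.651.

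The direction of the small medians with CDMB, CDEB and DDEB depends on scaling. The members' medians were 0.03, 0.04 and 0.04, with 59, 63 and 56 of 88 above 0. With quantile normalization they were -0.02, -0.02 and 0.01, with 35, 32 and 47 above 0. Unadjusted p-values below 0.05 were found for 3 members with CDMB, 7 with CDEB and 8 with DDEB, against 13.2%, 13.3% and 15.1% of all genes. Those are 3.41%, 7.95% and 9.09% of the members. For the complex I assembly factors, 1 of 7 estimates was above 0 with CDEB (0 with quantile normalization), and the lowest was Ndufaf7 at -0.19 ± 0.13. Ndufaf6 at -0.15 ± 0.08 was the lowest with CDMB, where the highest was Ndufaf1 at 0.07. Ndufaf3 at -0.14 ± 0.06 was the lowest with DDEB, where the highest was Ndufaf7 at 0.16. A second, dimmer probe of Ndufaf7 gave -0.00 with CDEB and went the other way with DDEB, at -0.21. Among complex I subunits the lowest were Ndufb4 with CDMB (-0.13) and Ndufa4 with CDEB (-0.11).

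**Figure D2:**
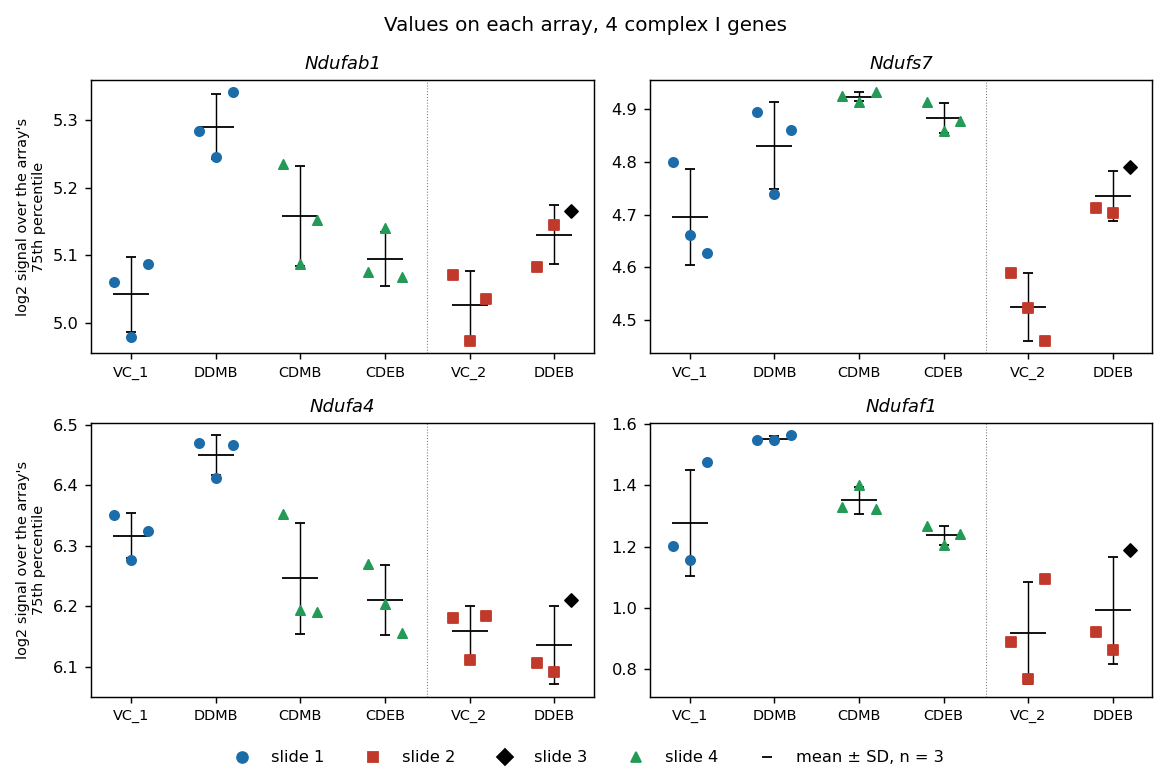
Level of Ndufab1, Ndufs7, Ndufa4 and Ndufaf1 on each array (log2 signal over the array's 75th percentile), by group; colour and shape give the slide, and bars are mean ± SD of 3 cultures. DDMB lies above VC_1 on every array for Ndufab1, and CDMB and CDEB lie above VC_1 for Ndufs7, while VC_2 lies below VC_1 on every array for Ndufs7 and Ndufaf1.

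The compounds were also compared with each other at the same dose and time, in 6 pairs, where for DDEB the effects over the own controls were compared. CDEB and CDMB share a slide and differed in 0 of 88 members, with 0 at an unadjusted p below 0.05; over all genes 0% passed, and 4.71% had an unadjusted p below 0.05. For 81 members the interval of this difference lay within 1.5-fold. The widest differences were Ndufs4 at 0.32 and Ndufaf1 at -0.11. DDMB exceeded CDEB in 1 member (1.14%), where 3.27% of all genes passed in either direction and 1.58% as higher. This was Ndufa4, at 6.47, 6.41 and 6.47 with DDMB and 6.27, 6.20 and 6.16 with CDEB, a difference of 0.24 ± 0.06 (adjusted p = 0.0467). The groups do not overlap, and VC_1 lay between them at 6.35, 6.28 and 6.32. The 2 groups lie on different slides, so compound and slide cannot be told apart. The call was lost when any 1 of these 6 arrays was left out (adjusted p from 0.0741 to 0.180), and with the slide as a random block it had an adjusted p of 1.00. Without the 4 arrays that stand apart, 5 members (5.68%, against 9.75% of all genes either way) were higher with DDMB than with CDEB: Ndufa4, Ndufab1, Ndufaf1, Ndufaf5 and Ndufaf8. In the other 4 pairs 0 members passed; of all genes 0.677% passed in DDMB against CDMB, 0.00464% in DDEB against CDEB and 0% in the remaining 2 pairs. In those 4 pairs, the lowest adjusted p was 0.111, for Ndufaf8 in DDMB against CDMB, and it was 0.651 or higher in the 3 pairs with DDEB.

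The DMSO groups of the 2 lots differed far more than any compound from its control. Between VC_2 and VC_1, 18 of 88 members passed the test (20.5%), close to the 21.8% of all genes that did. Higher in VC_2 were 6 members (12.5% of all genes), namely the complex IV forms Cox6b2 and Cox4i2, the complex I subunits Ndufa10, Ndufb2 and Ndufb10, and Atp5mc2, a copy of the ATP synthase c-ring gene. Lower were 12 (9.34% of all genes), namely Ndufaf1, Ndufaf3, Ndufaf6, Ndufaf8, Ndufv2, Ndufa9, Ndufa2, Ndufa11, Ndufa10l1, Cox6c, Cox7b and Uqcrb. Complex II had none on all arrays. Cox6b2 lay at 2.05, 1.83 and 1.78 in VC_1 and at 2.82, 2.82 and 2.68 in VC_2, a difference of 0.89 ± 0.13 (adjusted p = 0.000378). Cox6c lay at 7.32, 7.24 and 7.21 in VC_1 and at 6.88, 6.90 and 6.95 in VC_2, a difference of -0.35 ± 0.06 (adjusted p = 0.00118). Without the 4 arrays that stand apart, 25 members passed (28.4%, against 25.9% of all genes), of which 16 were among the 18. Ndufa10 and Atp5mc2 then no longer passed. Cox7c (1.04 ± 0.11, adjusted p = 0.000127), Cox6c-ps1 (0.85), Uqcrq (0.27) and the complex II gene Sdhb (0.19, adjusted p = 0.0482) were then higher in VC_2, and Ndufaf5, Ndufs3, Ndufs7, Cox7a2l and Atp5f1d lower. Both groups are cells given DMSO alone, and lot, slide and culture cannot be told apart. The summed signal of the 7 lymphocyte markers also differed between the lots, at 3.08, 2.59 and 2.65 in VC_1 and 5.01, 4.63 and 4.93 in VC_2. With DDEB it lay between 4.11 and 4.70. Its part in the difference between the lots was not tested.

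The probes of a gene did not all move alike between the lots. Of the 24 members with several probes, 11 had probes of opposite sign between VC_2 and VC_1, against 5 for DDMB, 9 for CDMB, 5 for CDEB and 10 for DDEB. The median range between probes of a gene was 0.16 for the lots and 0.03 for DDMB. The brighter probe of Cox6c differed by -0.35, and its dimmer probe by 0.36. The brightest of 4 probes of Atp5mc2 differed by 0.26, and the other 3 by -0.21, -0.12 and -0.10. With the mean of all probes in place of the brightest, Cox6c gave 0.01 and Atp5mc2 -0.04. Arrays with the same replicate number deviated together in the 2 DMSO groups, with correlations across genes of 0.63, 0.47 and 0.81 for numbers 1, 2 and 3. In a fit of these 6 arrays with the replicate number as a block, 48 of 88 members (54.5%) passed, against 50.3% of all genes. All 18 genes named here were among them. In the main fit, which has no block, the count of 18 fell to 11 when VC_2 replicate 1 was left out.

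**Figure D3:**
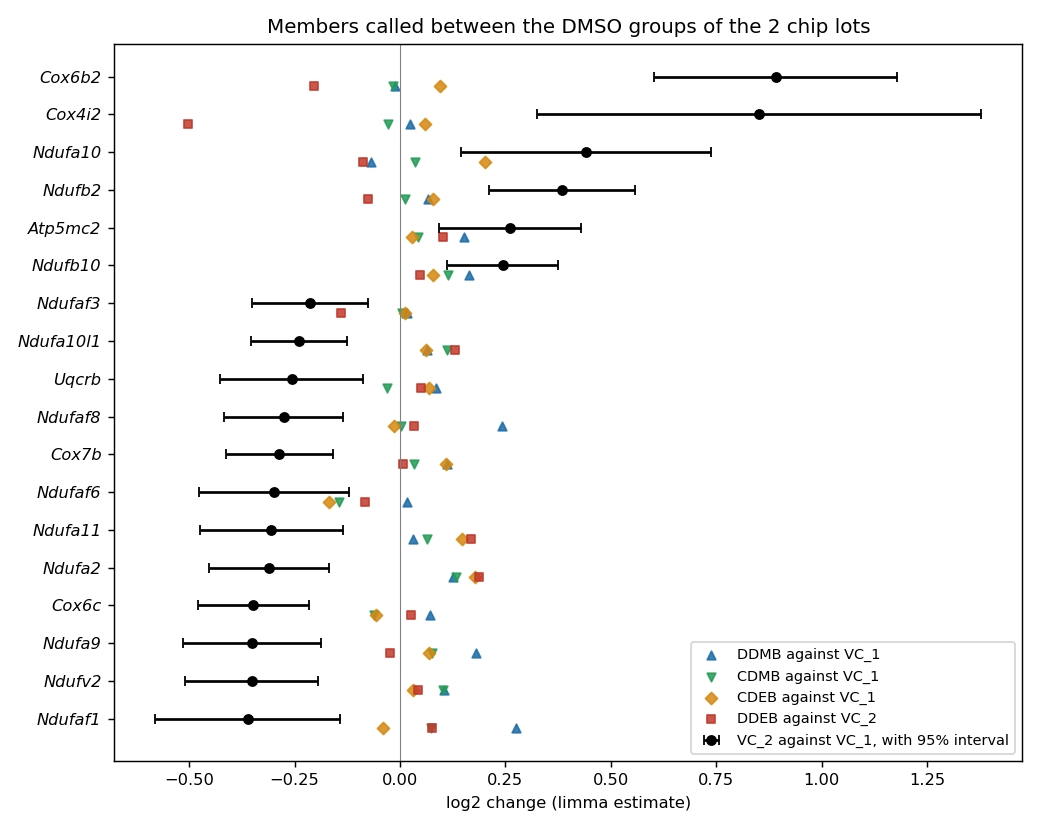
The 18 members that differed between the DMSO groups of the 2 chip lots: log2 change of VC_2 against VC_1 with 95% intervals (black), beside the change with each compound against its own control (colours). Cox6b2 at 0.89 and Cox4i2 at 0.85 lead on the positive side and Ndufaf1 at -0.36 on the negative side, while compound changes of the same genes lie mostly between -0.2 and 0.3.

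The DDEB comparison rests on 2 arrays of the control's slide and 1 array on a slide of its own, and in several complex IV genes that array alone was different. Cox7c, a small core-associated subunit, lay at 3.58, 3.44 and 3.55 in VC_2, at 3.44 and 3.40 on the first and second DDEB arrays, and at 1.1 on the third. In all groups on slides 1 and 4 it lay between 2.15 and 2.61. Cox4i2, a form induced by low oxygen in lung, lay at 2.42, 2.36 and 2.23 in VC_2 and at 2.32, 2.20 and 0.98 with DDEB. Cox6b2, the testis form, lay at 2.78, 2.76 and 2.17 with DDEB. The pseudogene Cox6c-ps1, whose signal cannot be separated with certainty from that of near-identical copies of Cox6c, lay at 2.60, 2.54 and 2.54 in VC_2 and at 2.53, 2.45 and 0.20 with DDEB. Without the third DDEB array the differences were -0.10 for Cox7c, -0.08 for Cox4i2, -0.00 for Cox6b2 and -0.07 for Cox6c-ps1, in place of -0.88, -0.50, -0.20 and -0.83. The median over the 88 members then was -0.00 in place of 0.04. A fixed block for the slide takes out that same array, so its equal median is not a second check.

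Cox6a2, the heart and muscle form, and Ndufa4l2, a paralog of Ndufa4 induced by low oxygen, had single arrays far from the others of their group. Cox6a2 lay at 2.86 on VC_1 replicate 3, 2.93 on VC_2 replicate 3, 2.82 on DDEB replicate 3 and 2.15 on DDMB replicate 2. On the other 14 arrays it lay between 1.27 and 1.77. Ndufa4l2 lay at -7.90, -7.23 and -7.26 on the first 3 of those arrays, but at -4.37 on DDMB replicate 2, which is the level of VC_1 replicate 2. It was low, at -6.06, on DDMB replicate 3, which does not stand apart. High values were 0.07 on DDEB replicate 1 and -2.07 on CDMB replicate 3, where the other 2 CDMB arrays lay at -4.67 and -4.56. Its standard error of 1.53 follows from this spread, and its estimates of 1.67 with CDMB, 1.65 with CDEB and 1.26 with DDEB had adjusted p-values of 0.640, 0.641 and 0.744. A second probe of Ndufa4l2 gave 1.25 with CDMB and 1.58 with CDEB. With DDEB and DDMB that probe went the other way, at -0.35 and -0.71. Ndufa4l2 lay below background on 5 arrays. The summed signal of 8 macrophage markers was lowest on the same 4 arrays, at -0.75, -0.33, -0.26 and -0.70, next at 0.17 on DDMB replicate 3, and between 1.54 and 2.44 on the other 13. Of these 8 markers only 1 or 2 lay above background on every array of a group. The summed signal of 7 proliferation genes was highest there, at 1.83, 1.70, 1.92 and 1.3, and at most 0.68 elsewhere. Their part in the values of Cox6a2 and Ndufa4l2 was not tested. In bulk RNA, fewer cells of a type and less RNA per cell cannot be told apart.

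**Figure D4:**
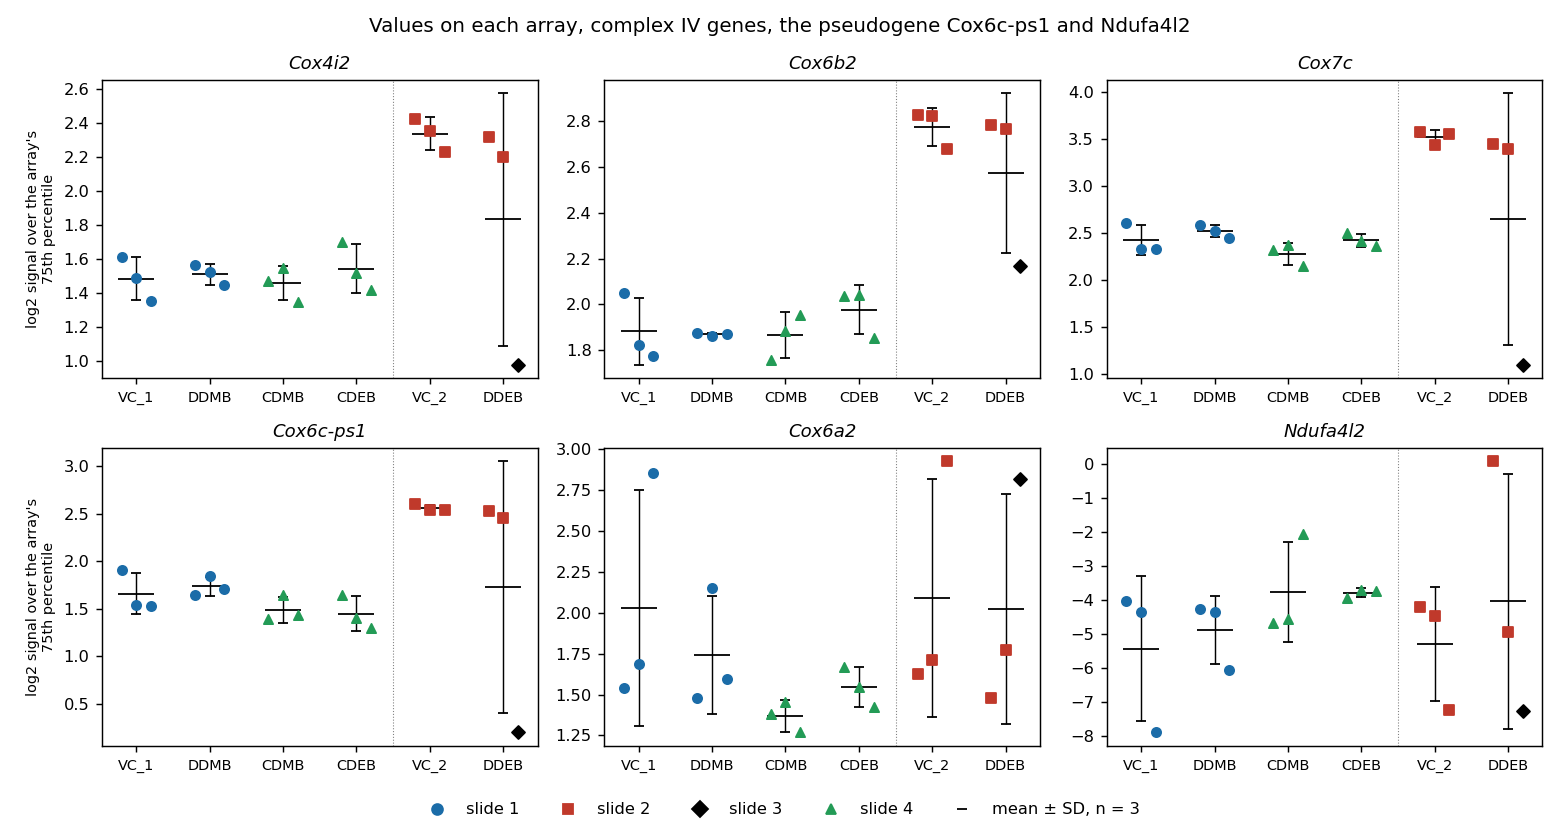
Level on each array (log2 signal over the array's 75th percentile) of Cox4i2, Cox6b2, Cox7c, the pseudogene Cox6c-ps1, Cox6a2 and Ndufa4l2; colour and shape give the slide, and bars are mean ± SD of 3 cultures. The first 4 genes lie high on slide 2 and lower on the single DDEB array of slide 3 (1.1 for Cox7c). Cox6b2 lies at 2.17 on that array, which is above its values on slides 1 and 4. Cox6a2 is high on 1 array each of VC_1, VC_2, DDEB and DDMB.

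Genes outside the symbol rule that work in or beside the chain gave little more. Among 31 assembly genes of complexes III to V, DDMB raised 1, where 0.556% of all genes passed. This was Lyrm7, a chaperone of the complex III iron-sulphur protein, by 0.40 ± 0.06 (adjusted p = 0.00665). The list's median was 0.12. Of 21 genes of the electron carriers and their synthesis, 0 passed for any compound. Cyc1, the cytochrome c1 of complex III, and Cycs, the cytochrome c that links complexes III and IV, gave 0.15 and 0.07 with DDMB. They gave -0.06 and -0.06 with CDMB, -0.06 and -0.04 with CDEB, and 0.04 and -0.12 with DDEB. Of 18 regulators of mitochondrial biogenesis, 1 passed, for DDEB, where 0.844% of all genes did. This was Epas1, a factor regulated by oxygen, at 0.44 ± 0.09 (limma, adjusted p = 0.0482), close to the threshold. The calls of Lyrm7 and Epas1 are given for the main fit only, and the third DDEB array lies on a slide of its own. Ppargc1a, the best known coactivator of this program, gave -0.43, 0.24, -0.05 and 0.43 with DDMB, CDMB, CDEB and DDEB, each ± 0.40. Its highest value, -1.91, was on DDEB replicate 2. Nrf1 gave 0.09, -0.17, -0.15 and -0.10 in the same order (± 0.11), Esrra 0.02, 0.21, 0.20 and 0.12 (± 0.11), and Tfam, which packages mitochondrial DNA, 0.00, 0.02, 0.02 and 0.05 (± 0.05). None of these 4 passed.

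Ucp2, a carrier of the inner membrane named as an uncoupling protein, passed the test in 1 of the 6 pairs of compounds. It also passed between the DMSO groups, at -0.50 ± 0.16 for VC_2 minus VC_1 (limma, adjusted p = 0.0418). It lay at -2.95, -2.54 and -2.66 in VC_1, at -2.61, -3.01 and -3.06 with DDMB, at -2.63, -2.58 and -2.48 with CDMB, and at -1.89, -2.13 and -2.15 with CDEB. In VC_2 it lay at -2.92, -3.36 and -3.37, and with DDEB at -2.47, -2.74 and -2.23. The CDEB and the DDEB arrays lay above all their controls, by 0.66 ± 0.16 (adjusted p = 0.149) and 0.74 ± 0.16 (adjusted p = 0.0520), and neither passed. DDMB was 0.83 ± 0.16 lower than CDEB, across slides, with an adjusted p of 0.0189. On their shared slide, CDEB was 0.50 ± 0.16 above CDMB (adjusted p = 0.800), and DDMB minus CDMB was -0.33 (adjusted p = 0.331). The effect of DDEB minus that of DDMB was 0.92 (adjusted p = 0.523), minus that of CDMB 0.58 (adjusted p = 0.764) and minus that of CDEB 0.08 (adjusted p = 0.910).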

How the data were processed

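Each of the 18 RNA samples was hybridised to 1 single-colour Agilent array. The scanner intensity had been background-subtracted by Feature Extraction 10.7.1.1, per the file headers. The authors also deposited linear signal tables, 1 per chip lot, used as an alternative. Their column medians lay between 0.045 and 0.075, their genes were not centred, and each column was a constant times the scanner value over the array's 75th percentile (100% of probes with a value over 1 within 1%).

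Log2 intensity was averaged over unflagged spots, minus the array's 75th percentile (421 to 640). Probes were named by accession without version through a RefSeq gene table (GRCr8): 21102 of 45598 probes, 16575 genes. A probe was kept when well above background on all 3 arrays of a group (25306 probes), and the brightest stood for its gene. After a check on simulated data, limma 3.58.1 (R 4.3.3) fitted the 6 group means over all arrays, with 12 residual degrees of freedom. P-values were adjusted by Benjamini-Hochberg per comparison over all genes. The normexp alternative used median signals (offset 50), since mean signals were not in the files used. The number of arrays limits the precision.

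The members and all gene lists were chosen with earlier results of these data known. Named are all called members and, per complex, the highest and lowest change with each compound, a fixed set (Sdha to Sdhd, the isoform pairs of complex IV, Atp5if1, Cyc1, Cycs, Ppargc1a, Nrf1, Tfam, Esrra, Ucp2) and, in the comparisons of compounds, called genes of the neighbouring lists. Further members were named after their values were seen. No probe was matched to Cox7a1. Same-numbered arrays of VC_1 and VC_2 deviated together (correlation over 0.1 for each number), so their blocked result is given.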

Additional observations from a re-analysis of the deposited data

Results flagged for a closer look

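Ndufa4 differed between DDMB and CDEB by a direct test, with a log2 difference of 0.239 ± 0.06 (adjusted p = 0.0467, limma). The 3 DDMB arrays lay above the 3 CDEB arrays. The groups lie on different slides, and the call held in 6 of 17 alternatives, with an adjusted p from 0.0178 to 1.00.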

How the results depend on the processing

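For each compound against its control, the count of 0 members held under every alternative listed for it that could be run; without the 4 arrays that stand apart, chosen after seeing the data, it was 1 for DDMB (Ndufaf1, 0.38). The median with DDMB was 0.023 with quantile normalization. The median with CDEB was -0.023 with quantile normalization and -0.019 with normexp, and that with DDEB was -0.00222 with the slide as a fixed block. For DDEB that block amounts to leaving out the third DDEB array, so the 2 settings give the same value by construction. Leaving out each array in turn, medians ranged from 0.07 to 0.11 for DDMB, -0.01 to 0.06 for CDMB, 0.02 to 0.07 for CDEB, -0.00222 to 0.070 for DDEB and -0.03 to -0.00 for VC_2 against VC_1. Between the DMSO groups, the count of 18 was 25 without the 4 arrays, 28 with quantile normalization (median -0.078) and 11 to 17 with 1 array left out. Fitting only the arrays compared gave 12. With the mean of all probes, Atp5mc2 turned to -0.042 and Cox6c to 0.0063. For DDMB against CDEB the count of 1 was 0 with each array left out, with the median as scale, with no filter on dim probes, in a fit of only the arrays compared and with the slide as a random block. It was 2 with quantile normalization, with the authors' deposited tables and with probes above background on all arrays, 3 with normexp, and 5 without the 4 arrays. The cause of these changes was not tested.

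The replicate number as a block in the fit of all arrays gave 0 members for each compound against its control, 1 for DDMB against CDMB (Ndufaf8), 3 for DDMB against CDEB and 23 between the DMSO groups; in the fit of the 6 DMSO arrays alone, also chosen after seeing the data, it gave 48. Between each compound and its control, correlations of same-numbered arrays ran from -0.42 to 0.56. For DDEB and VC_2 they were 0.43, 0.096 and 0.49 for numbers 1, 2 and 3. For DDEB and VC_1 they were 0.48, 0.12 and 0.53, so pairing was not limited to the DMSO groups. Array weights were not run, since their estimate did not converge. Signal over background limits Ndufs4, Ndufa4l2 and Cox8b, which lay well above background on 17, 13 and 12 of the 18 arrays. Cox8b passed the filter through the VC_1, DDMB, CDMB and CDEB arrays, and lay well above background on no VC_2 and no DDEB array. Of the 1885 checks on 111 values of named genes, those on called genes kept the call in 250, lost it in 53 and reversed in 2, and those on uncalled genes gained a call in 1 (Ndufaf1 with DDMB without the 4 arrays), moved by more than 1 SD between replicates in 51 and by less in 1528. Members that gained a call in a comparison where they are not among these 111 values, such as Ndufaf8 in DDMB against CDMB with the block, are not in these counts.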

Other observations

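The mitochondrial ribosome, which makes the subunits encoded inside the mitochondrion, was read through 67 measured genes. With DDMB all 67 genes, whose symbols begin with Mrpl or Mrps, had positive estimates against VC_1, with a median of 0.14, where 76.2% of the brightest 10% of genes were positive, and 0 passed the test (0.556% of all genes did). With quantile normalization 64 of the 67 were positive, with a median of 0.09. The other compounds gave 28 of 67 above 0 with CDMB, 23 with CDEB and 42 with DDEB, with medians of -0.02, -0.04 and 0.02. Compared with CDEB, across slides, DDMB was higher in 6 of these genes, where 1.58% of all genes were higher and 3.27% passed either way. These were Mrpl19 by 0.44 ± 0.10 (adjusted p = 0.0324), Mrps27 by 0.43 ± 0.09 (adjusted p = 0.0251), Mrpl58 by 0.35, Mrpl55 by 0.32, Mrpl36 by 0.30 and Mrpl50 by 0.26. The list was chosen with earlier results known, and its genes share arrays and scaling.

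In the same comparison, DDMB was also higher than CDEB in 3 of 31 assembly genes of complexes III to V, namely Coa8 (0.28 ± 0.06, adjusted p = 0.0219), Cmc1 (0.21 ± 0.05, adjusted p = 0.0495) and Atpaf2 (0.30 ± 0.07, adjusted p = 0.0366). Of 17 citric acid cycle genes it was lower in 1, Idh2, which makes mitochondrial NADPH (-0.38 ± 0.08, adjusted p = 0.0251). DDMB and CDEB lie on different slides, so compound and slide cannot be told apart in these calls or in those of the ribosome genes. All of these calls are given for the main fit only. For each compound against its control, 0 of the 17 citric acid cycle genes, 0 of 22 genes that maintain or express mitochondrial DNA, 0 of 9 complex I assembly genes without the Nduf name, 0 of 9 uncoupling and nucleotide carriers and 0 of 17 genes of mitochondrial protein quality control passed.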
